A study of Mus musculus with 8 samples.

Results

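The long-chain acyl-CoA synthetases are the 8 genes of the Acsl and Acsbg families in these data: Acsl1, Acsl3, Acsl4, Acsl5, Acsl6, Acsbg1, Acsbg2 and 1700061G19Rik, which RefSeq names Acsbg3. They were taken by gene name from a table of 54532 genes, and all 8 were found. The family was selected on measured values: Acsl1, Acsbg2 and 1700061G19Rik had stood out for low levels in P spermatocytes of MFN2 cKO mice at postnatal day (PD) 24, so that pair is described here without a test. RNA was sequenced from spermatocytes of C57BL/6J mice, with 1 library for each of 8 groups. MFN2 WT mice carried Mfn2 loxp/loxp without Cre (the study's methods also count heterozygous floxed littermates as controls), and MFN2 cKO mice carried Mfn2 loxp/loxp with Stra8-Cre, which is active in male germ cells. Each genotype was sampled at PD 24 and PD 52, as P spermatocytes (pachytene, or the pachytene-like cells of the cKO) and as L/Z spermatocytes (leptotene and zygotene). Cells were separated by size, by settling through an albumin gradient, so each library is a fraction enriched in a stage and not a pure cell type.

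Fatty acids are chemically inert until they are joined to coenzyme A, and acyl-CoA synthetases carry out this step with ATP. The acyl-CoA product can be burned in mitochondria or peroxisomes, built into phospholipids and triglycerides, or lengthened and desaturated. The Acsl enzymes act on long-chain fatty acids and differ in where they sit and in which fatty acids they prefer. The Acsbg ("bubblegum") enzymes, named after a fly mutant, take long and very long chains, and Acsbg2 is known as a testis enzyme. In the testis, germ cells remodel their membranes as they become spermatids, which are rich in polyunsaturated fatty acids, while Leydig cells use fatty acids and cholesterol to make steroids.

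The libraries held between 14340665 and 20379950 reads on genes. Mfn2, the targeted gene, had 62.2 to 97.5 FPKM (fragments per kilobase of gene, scaled for sequencing depth) in MFN2 WT and 34.3 to 50.1 FPKM in MFN2 cKO libraries; these values cover the whole gene, of which exon 6 alone is deleted. The L/Z label was met by some of its markers only. The 14 leptotene and zygotene markers summed to between 228 and 369 FPKM in L/Z libraries and to between 332 and 439 FPKM in P libraries, and 7 of them were higher in P in all 4 pairs. Prdm9, Dmc1, Gm960 and Smc1b, named after their values were seen, were higher in L/Z in all 4. Of the 18 spermatid markers, genes of cells past meiosis, 17 were higher in L/Z than in P in all 4 pairs. The summed spermatid markers ran from 350 FPKM in P cKO at PD 24 to 22192 FPKM in L/Z cKO at PD 52. The 9 Leydig cell markers summed to between 20.8 and 262 FPKM in MFN2 WT and to between 102 and 667 FPKM in MFN2 cKO libraries, with 8 of the 9 higher in cKO in all 4 pairs. No marker of either list was at 0 in all libraries. In such bulk samples, fewer cells of a type and less RNA per cell cannot be told apart. With 1 library per group there is no replicate spread, so intervals on single pairs cover counting error only.

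All 8 synthetases were detected, and 7 of them stood above 1 FPKM in all 8 libraries, Acsl4 being the exception. By mean FPKM over the libraries the order was 1700061G19Rik with 57.1, Acsbg2 with 51.2, Acsbg1 with 39.0, Acsl1 with 28.7, Acsl6 with 13.2, Acsl3 with 9.79, Acsl4 with 3.46 and Acsl5 with 2.17 FPKM. The 4 genes at the head of this order had overlapping ranges across libraries, and Acsbg2 exceeded 1700061G19Rik in the L/Z libraries at PD 52 and lay below it in the other libraries. The order also depended on gene length: the deposited lengths add up all exons of a gene, which for Acsl1 is 2.69 times and for Acsl6 3.82 times the length of the principal transcript. Per principal transcript, Acsl1 led with a mean of 77.2 FPKM, ahead of 1700061G19Rik with 62.0, Acsbg2 with 51.2, Acsl6 with 50.5 and Acsbg1 with 48.8 FPKM. Differences between libraries for 1 gene do not depend on this choice.

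**Figure D1:**
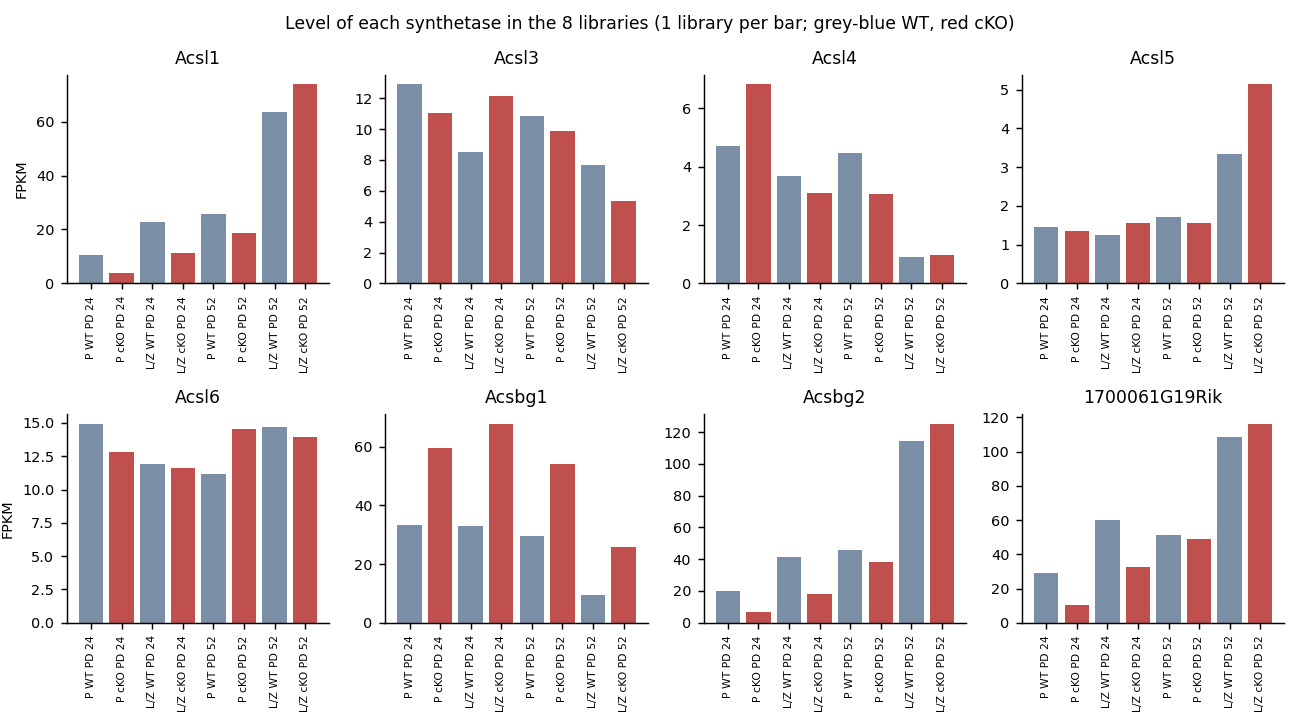
FPKM (vertical axis, each panel from 0 on its own scale) of each synthetase in the 8 libraries, 1 bar per library, grey-blue for MFN2 WT and red for MFN2 cKO. Acsl1, Acsbg2 and 1700061G19Rik had the same shape, lowest in P cKO at PD 24 and highest in L/Z at PD 52, Acsbg1 was higher in cKO than in WT in all 4 pairs, and Acsl6 stayed between 11.2 and 14.9 FPKM.

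Acsl1, Acsbg2 and 1700061G19Rik moved as a group. Acsl1, the main long-chain synthetase of fat, heart and liver, had 10.4 FPKM in P WT, 3.82 in P cKO, 22.7 in L/Z WT and 11.5 in L/Z cKO at PD 24. At PD 52 it had 25.6 FPKM in P WT, 18.5 in P cKO, 63.4 in L/Z WT and 73.7 in L/Z cKO. The level was lowest in P cKO at PD 24 and highest in the L/Z libraries at PD 52, a 19.3-fold span. Acsbg2 had 20.2, 6.57, 41.6 and 18.2 FPKM at PD 24 and 45.9, 38.1, 114 and 125 FPKM at PD 52, in the same order of groups. 1700061G19Rik had 29.1, 10.5, 59.8 and 32.5 FPKM at PD 24 and 51.4, 49.0, 109 and 116 FPKM at PD 52. For all 3 genes the L/Z libraries at PD 52 lay above every other library.

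The ratio of Acsbg2 to Acsl1 FPKM stayed between 1.59 and 2.05 in all 8 libraries, a 1.30-fold span, while each gene spanned about 19-fold. The ratio of Acsbg2 to 1700061G19Rik moved more, from 0.560 to 1.08, and was above 1 only in the L/Z libraries at PD 52. Pearson's correlation of log2(FPKM + 1) over the 8 libraries was 0.996 between Acsl1 and Acsbg2, 0.984 between Acsl1 and 1700061G19Rik and 0.988 between Acsbg2 and 1700061G19Rik. The points of each pair of genes share their libraries, with their stage, age and depth. These libraries include the P libraries of PD 24, whose difference led to the choice of the 3 genes. The ratios and correlations are therefore not independent of that choice. In a search over 8272 genes, each of the 3 correlated more closely with genes outside the family, at 0.997 to 0.999.

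Acsbg2 and 1700061G19Rik are neighbours on chromosome 17 (GRCm38). Acsbg2 lies on the minus strand at 56843103 to 56874447 and 1700061G19Rik on the plus strand at 56875477 to 56888904, so the genes point away from each other with 1029 bases between them. Acsl1 lies elsewhere, on the plus strand of chromosome 8 at 46471037 to 46536051. Over their coding sequences, Acsbg2 and 1700061G19Rik were identical at 63.2% of aligned bases, Acsbg1 and Acsbg2 at 65.8%, and Acsl1 and Acsl6 at 67.4%. Reads were therefore little shared: 0.507% of the 50-base windows of Acsbg2 and none of those of 1700061G19Rik occurred in transcripts of other genes. Acsl1 shared 9.23% of its windows with 19 other genes.

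The promoters of the genes that moved together are shown because the members of this group lie on separate chromosomes or strands. RefSeq promoters (GRCm38.p6, 250 bases before to 50 after the start) matched 7 of the 8 synthetases, and Acsbg2 was the one without an entry. They are written 5′ to 3′ on the strand of the gene, with capitals marking matches to any searched motif on either strand: the full cAMP response element TGACGTCA, its half-site TGACG, the nuclear receptor half-site AGGTCA, the GC box GGGCGG, the CCAAT box, the TATA box TATAAA and a MYB site CAACTG. The half-site lies inside the full element, so their matches overlap.
1700061G19Rik, chr17:56875234-56875533, plus strand: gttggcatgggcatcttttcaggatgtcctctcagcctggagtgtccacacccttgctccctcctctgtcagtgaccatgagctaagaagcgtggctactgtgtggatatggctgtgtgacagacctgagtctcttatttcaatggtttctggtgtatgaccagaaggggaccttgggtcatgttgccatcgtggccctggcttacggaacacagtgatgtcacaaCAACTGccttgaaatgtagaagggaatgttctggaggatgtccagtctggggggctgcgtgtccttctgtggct
Acsl1, first start, chr8:46470787-46471086, plus strand: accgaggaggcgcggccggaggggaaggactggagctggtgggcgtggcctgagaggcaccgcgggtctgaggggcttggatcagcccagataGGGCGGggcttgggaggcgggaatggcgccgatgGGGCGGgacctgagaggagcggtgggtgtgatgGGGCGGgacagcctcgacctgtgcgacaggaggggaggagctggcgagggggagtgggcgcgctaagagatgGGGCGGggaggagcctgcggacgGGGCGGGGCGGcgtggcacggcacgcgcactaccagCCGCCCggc
Acsl1, second start, chr8:46490716-46491015, plus strand: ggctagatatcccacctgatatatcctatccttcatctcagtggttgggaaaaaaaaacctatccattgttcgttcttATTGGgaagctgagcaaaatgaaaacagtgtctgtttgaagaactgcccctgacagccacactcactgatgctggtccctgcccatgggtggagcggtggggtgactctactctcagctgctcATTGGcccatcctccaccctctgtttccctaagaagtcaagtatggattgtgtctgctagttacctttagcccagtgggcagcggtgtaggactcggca
The first Acsl1 promoter was 74% G and C and held 7 GC boxes, the second was 50% G and C and held 2 CCAAT boxes, and that of 1700061G19Rik was 52.7% G and C and held 1 MYB site, at position -24 from the start. None of the 7 motifs occurred in both genes. Over all 32544 promoters of this length, 35.9% held a GC box, 37.4% a CCAAT box, 13.6% a MYB site, 20.9% the half-site, 1.80% the full element, 16.2% the nuclear receptor half-site and 13.6% a TATA box. A match describes letters in this window only. The table of counts does not tell which Acsl1 start was used.

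The question of the study was what changes in spermatocytes that lack MFN2. In the P pair at PD 24, which led to the choice of the family, the cKO library lay below the WT library by 1.24 for Acsl1, 1.48 for Acsbg2 and 1.39 for 1700061G19Rik on the log2(FPKM + 1) scale, which is 2.72-, 3.07- and 2.78-fold lower in FPKM. In that pair 6.29% of 16749 genes were 2-fold or more lower in cKO and 1.79% were 2-fold or more higher, and nothing is read from the 3 synthetases past that threshold. In the L/Z pair at PD 24, Acsbg2 was lower in cKO by 1.15 (95% counting interval of the change -1.26 to -1.04), Acsl1 by 0.93 and 1700061G19Rik by 0.86. Of the 8 synthetases, 1 was 2-fold or more lower and 1 was 2-fold or more higher in this pair, against 7.03% and 3.45% of 17664 genes. At PD 52 the group differed less. In the P pair the changes were -0.44 for Acsl1, -0.26 for Acsbg2 and -0.07 for 1700061G19Rik, and in the L/Z pair they were 0.21, 0.13 and 0.10, with the cKO library on top.

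No synthetase was 2-fold or more changed in the P pair at PD 52, where 5.78% of 17444 genes were lower and 5.21% higher by that much in cKO. In the L/Z pair at PD 52, 1 of the 7 synthetases that passed the filter of 1 FPKM was 2-fold or more higher and none was lower, against 4.83% and 3.12% of 17860 genes. The median change of the family was -0.21 in the P pair at PD 24, -0.11 in the L/Z pair at PD 24, -0.10 in the P pair at PD 52 and 0.12 in the L/Z pair at PD 52, with all 8 counted. Over all genes tested the medians were -0.10, 0.08, -0.05 and 0.02. A test by limma over the 3 pairs that did not lead to the choice of the family called 0 synthetases, and 1 of 20686 genes (0.00483%) passed an adjusted p of 0.05, with 998 at an unadjusted p under 0.05. That gene, named after its values were seen, was the histone gene Hist1h2al, with an effect of 6.86. For Acsl1 the effect was -0.39 with a 95% interval from -1.07 to 0.30, for Acsbg2 -0.43 (-1.16 to 0.31) and for 1700061G19Rik -0.28 (-0.92 to 0.37), each with a limma adjusted p of 0.999.

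**Figure D2:**
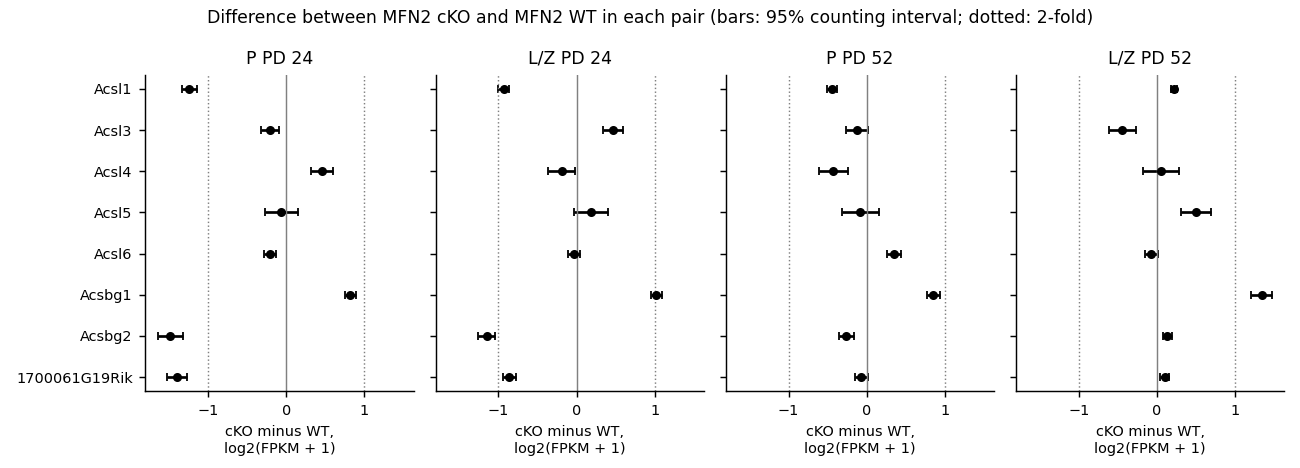
Difference of log2(FPKM + 1) between MFN2 cKO and MFN2 WT (horizontal axis) for each synthetase in the 4 pairs, with 95% counting intervals as bars and dotted lines at a 2-fold change. Acsl1, Acsbg2 and 1700061G19Rik lay left of 0 in both pairs at PD 24 and in P at PD 52 and right of 0 in L/Z at PD 52, and Acsbg1 lay right of 0, from 0.82 to 1.34, in all 4 pairs.

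The group differed between the stages in every pair. At PD 52, in libraries that did not lead to the choice of the family, the difference of P from L/Z on the log2(FPKM + 1) scale was -1.28 in WT and -1.94 in cKO for Acsl1. It was -1.30 in WT and -1.69 in cKO for Acsbg2, and -1.07 in WT and -1.23 in cKO for 1700061G19Rik. Over these 2 pairs alone limma gave -1.61 ± 0.31 (SE) for Acsl1, -1.49 ± 0.29 for Acsbg2 and -1.15 ± 0.28 for 1700061G19Rik, with adjusted p values of 0.0705, 0.0715 and 0.0839. None was called, and neither was any of 19713 genes (0%), of which 5452 had an unadjusted p under 0.05.

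The fit over all 4 pairs includes both P libraries of PD 24, whose difference led to the choice of the 3 genes, so it is not independent of that choice. It gave -1.41 ± 0.18 for Acsl1 (limma effect, SE, 4 pairs, adjusted p = 0.00531), -1.33 ± 0.17 for Acsbg2 (adjusted p = 0.00528) and -1.21 ± 0.16 for 1700061G19Rik (adjusted p = 0.00531). In that fit 4 of the 8 synthetases passed the test for stage, against 27.9% of 21175 genes. Each of the 3 genes was 2-fold or more lower in P in all 4 pairs. Of 14657 genes, 3.75% changed that much in all 4 pairs in 1 direction, with higher and lower genes counted together. These counts use the same libraries. The spermatid markers were lower in P too, with 16 of 18 past the 4-pair test and a median effect of -1.40. So were 9 of 10 macrophage markers (median -1.39) and 5 of 5 tested peritubular myoid cell markers (median -1.51). Sertoli cell markers went the other way, with 10 of 10 higher in P (median 1.82), and 1 of 8 Leydig markers was higher. The pachytene, leptotene and zygotene, and spermatogonia markers had calls in both directions. Without blocking the pairs, the limma adjusted p of the 3 synthetases rose to between 0.214 and 0.275. With a single pair left out in turn it reached up to 0.0351.

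The same genes were higher at PD 52 than at PD 24. In the L/Z libraries, which did not lead to the choice of the family, Acsl1 was 2.79-fold higher at PD 52 in WT and 6.43-fold in cKO, Acsbg2 2.74-fold and 6.89-fold, and 1700061G19Rik 1.82-fold and 3.58-fold. The difference was larger in cKO than in WT for all 3 genes here, which was not tested. Over these 2 L/Z pairs limma gave 2.01 ± 0.36 (SE) for Acsl1, 2.08 ± 0.39 for Acsbg2 and 1.33 ± 0.33 for 1700061G19Rik on the log2(FPKM + 1) scale, each with an adjusted p of 0.124. That fit called 0 of 19657 genes (0%), with 5908 at an unadjusted p under 0.05.

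Over all 4 pairs, again with the P libraries of PD 24 included, the limma effect of age was 1.82 ± 0.25 for Acsl1 (SE, adjusted p = 0.0186), 1.92 ± 0.29 for Acsbg2 (adjusted p = 0.0189) and 1.40 ± 0.27 for 1700061G19Rik (adjusted p = 0.0264). This test called 3 of the 8 synthetases, against 16.1% of 21175 genes. Acsl1 and Acsbg2 were 2-fold or more higher at PD 52 in all 4 pairs, and 1700061G19Rik was so in both cKO pairs. Of 14875 genes, 3.48% changed that much in all 4 pairs in 1 direction, with higher and lower genes counted together. The calls were lost when either cKO pair was left out. Without the P cKO pair the limma adjusted p values were 0.0936, 0.0945 and 0.107, in the order Acsl1, Acsbg2 and 1700061G19Rik. Without the L/Z cKO pair they were 0.0525, 0.0529 and 0.0793. The call of 1700061G19Rik was also lost without the L/Z WT pair (0.0614), and no call held without the block (0.118 to 0.141). The number of all genes called fell in each of these fits too, to none without either cKO pair, as given at the end.

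**Figure D3:**
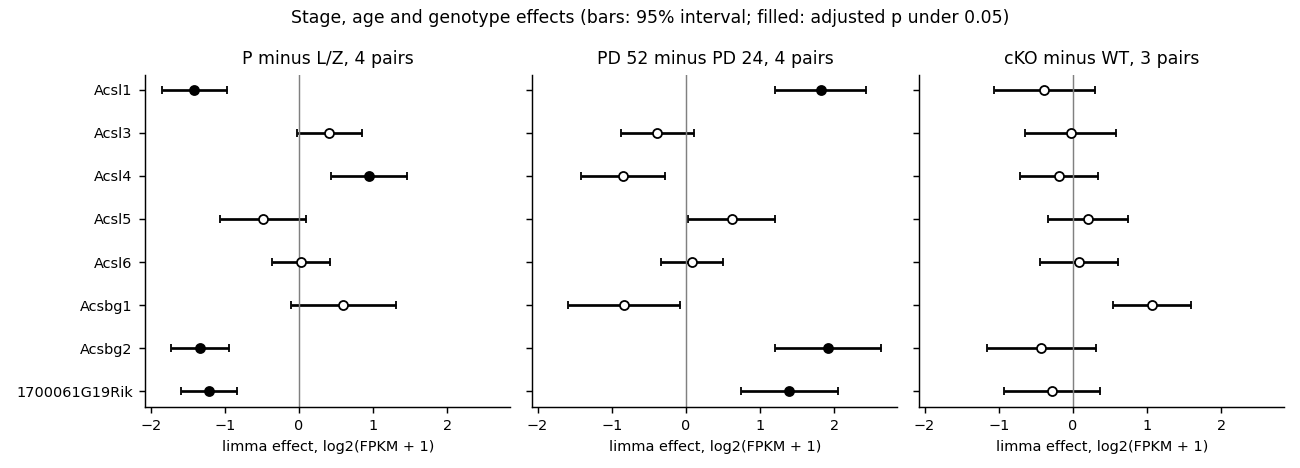
Limma effects on log2(FPKM + 1) (horizontal axis) for stage and age over 4 pairs and genotype over 3 pairs, with 95% intervals as bars and filled points where the adjusted p was under 0.05. For stage Acsl1, Acsbg2 and 1700061G19Rik lay left of 0 and Acsl4 right of 0, for age the same 3 genes lay right of 0, and no genotype point is filled.

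The order of the libraries by these 3 genes was close to that by the spermatid markers. Ranked over the 8 libraries, Acsbg2 came in the same order as the summed spermatid markers, from 350 FPKM in P cKO at PD 24 to 22192 FPKM in L/Z cKO at PD 52. Acsl1 differed from that order by 1 exchange of neighbours, P WT (10.4 FPKM) and L/Z cKO (11.5 FPKM) at PD 24. 1700061G19Rik departed by the same exchange (29.1 and 32.5 FPKM) and by another, with L/Z WT at PD 24 (59.8 FPKM) above P WT at PD 52 (51.4 FPKM). The proportion was not fixed. Between P cKO at PD 24 and L/Z cKO at PD 52 the ratio of Acsbg2 to Prm1, a protamine of late spermatids, went from 1.99 to 0.0265, while its ratio to Spaca1, an acrosome gene of earlier spermatids chosen after its values were seen, stayed between 0.261 and 0.687 in all 8 libraries. The part of spermatid content in the stage, age and genotype differences of the group was not tested.

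**Figure D4:**
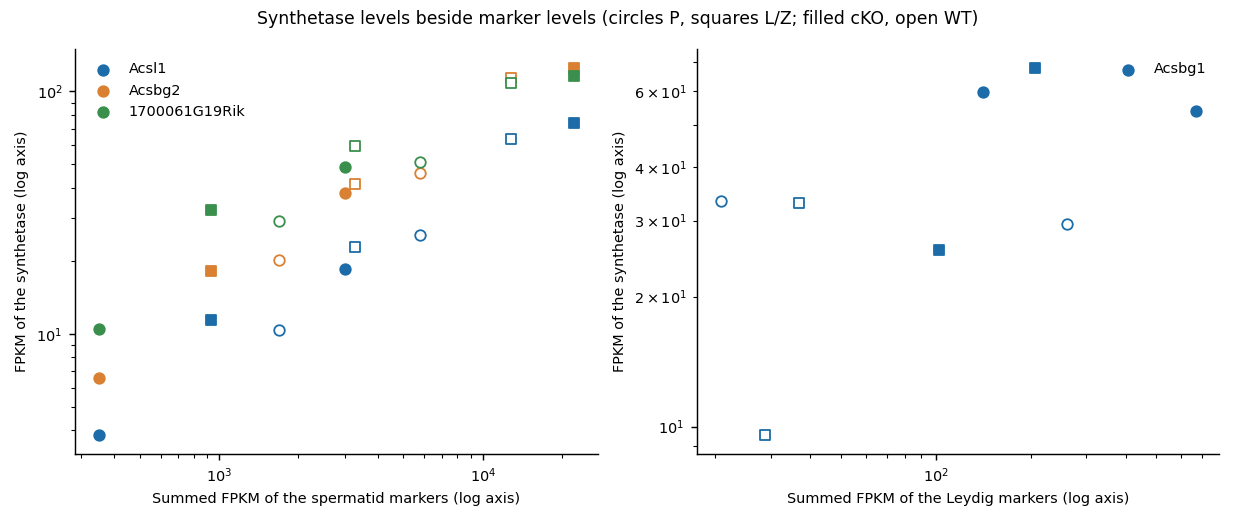
Synthetase FPKM (vertical, log axis) against the summed FPKM of 18 spermatid markers (left, log axis) and of 9 Leydig cell markers (right, log axis), 1 point per library, circles for P and squares for L/Z, filled for cKO and open for WT. On the left the 3 genes rise from the lowest library, P cKO at PD 24, to the highest, L/Z cKO at PD 52, and on the right each cKO point of Acsbg1 lies to the right of and above its WT partner.

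Acsbg1 was the one synthetase higher in MFN2 cKO in every pair. This enzyme is known from brain, adrenal gland and testis, where somatic cells express it. At PD 24 it had 33.3 FPKM in P WT, 59.6 in P cKO, 32.9 in L/Z WT and 67.8 in L/Z cKO. At PD 52 it had 29.4 FPKM in P WT, 54.0 in P cKO, 9.55 in L/Z WT and 25.7 in L/Z cKO. The cKO library was above its WT partner by 0.82 (95% counting interval 0.75 to 0.89) in P at PD 24, 1.02 (0.95 to 1.10) in L/Z at PD 24, 0.85 (0.77 to 0.94) in P at PD 52 and 1.34 (1.20 to 1.48) in L/Z at PD 52, on the log2(FPKM + 1) scale. The L/Z cKO library at PD 52, with 25.7 FPKM, still lay below the WT libraries of the other 3 pairs, so the genotypes overlapped across stages and ages.

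Over the 3 pairs tested, the limma effect of genotype on Acsbg1 was 1.07 ± 0.21 with an unadjusted p of 0.00263 and an adjusted p of 0.502, and it was not called. The adjusted p ranged from 0.147 to 1.00 over the alternatives. Acsbg1 was not called for stage (0.60 ± 0.30, limma adjusted p = 0.172) or age (-0.84 ± 0.31, adjusted p = 0.108). At PD 24 its level hardly differed between stages, and at PD 52 it was 3.08-fold higher in P than in L/Z in WT and 2.10-fold in cKO. The test of this difference between ages gave 1.37 ± 0.31 with a limma adjusted p of 0.502; it called 0 of 21175 genes (0%), with 1969 at an unadjusted p under 0.05.

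Leydig cell markers moved with Acsbg1 between genotypes. The whole list of 9 summed to 20.8 FPKM in P WT and 141 FPKM in P cKO at PD 24, and to 36.9 and 207 FPKM in L/Z. At PD 52 it summed to 262 and 667 FPKM in P and to 28.7 and 102 FPKM in L/Z. The steroid enzyme Hsd3b1 was higher in cKO in all 4 pairs as well, and the ratio of Acsbg1 to Hsd3b1 ranged from 1.58 to 6.02. Its ratio to Cyp11a1, the enzyme that starts steroid synthesis and a gene named after its values were seen, ranged more widely, from 1.16 to 16.6. Acsbg1 did not track the sum across libraries, since P WT at PD 52 had a sum of 262 FPKM with 29.4 FPKM of Acsbg1 and P WT at PD 24 had a sum of 20.8 with 33.3 FPKM. The summed macrophage markers were also higher in cKO in all 4 pairs, 8 of the 10 markers in each of them, with sums of 11.8 to 63.3 FPKM in WT and 26.3 to 284 FPKM in cKO. Other somatic lists were mixed. In WT and cKO the Sertoli markers summed to 518 and 634 FPKM in P and 203 and 175 FPKM in L/Z at PD 24. At PD 52 they summed to 630 and 204 FPKM in P and 29.2 and 72.7 FPKM in L/Z. All 10 were higher in P than in L/Z in all 4 pairs. The summed peritubular myoid markers were lower in cKO in both P pairs and higher in both L/Z pairs. The part of somatic cells in the Acsbg1 difference was not tested. By the paper's account Cre was expressed in male germ cells and somatic cells were not edited. Recombination in somatic cells was not measured here.

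The promoter of Acsbg1 is shown beside those above because the gene went the other way. It was 47% G and C and held 2 CCAAT boxes and no other searched motif. Acsbg1 lies on the minus strand of chromosome 9, at 54604877 to 54661870.
Acsbg1, chr9:54661836-54662135, minus strand: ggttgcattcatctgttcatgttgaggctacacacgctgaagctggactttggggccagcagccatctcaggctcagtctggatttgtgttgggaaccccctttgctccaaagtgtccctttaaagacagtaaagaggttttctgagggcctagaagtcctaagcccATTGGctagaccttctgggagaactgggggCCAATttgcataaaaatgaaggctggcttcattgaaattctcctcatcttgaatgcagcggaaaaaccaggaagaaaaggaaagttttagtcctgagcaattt

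Acsl4 and Acsl3, which are close relatives (69.4% of aligned coding bases identical), were higher in P than in L/Z libraries in most pairs. Acsl4, an X-linked gene whose enzyme prefers arachidonic acid and other polyunsaturated fatty acids, had 4.70 FPKM in P WT, 6.81 in P cKO, 3.69 in L/Z WT and 3.11 in L/Z cKO at PD 24. At PD 52 it had 4.45, 3.05, 0.890 and 0.962 FPKM in the same order. The L/Z libraries at PD 52 were the lowest, with 72 reads in WT and 76 in cKO. Acsl4 was higher in P than in L/Z in all 4 pairs, with a limma effect of 0.94 ± 0.22 (adjusted p = 0.0206), and this call was lost in the 2 pairs of PD 52 alone (1.29 ± 0.29, limma adjusted p = 0.0787), without the cKO pair at PD 24 (0.0533), without that at PD 52 (0.0769), without a filter on FPKM (0.0703) and without the block (0.144). For age its effect was -0.85 ± 0.23 with a limma adjusted p of 0.0562. The cKO library was 1.45-fold higher than WT in P at PD 24 and 1.46-fold lower in P at PD 52, and the counting intervals of both changes left out 0. Limma over 4 pairs also called all 10 Sertoli markers higher in P (median effect 1.82). It called 3 of 10 pachytene markers higher and 1 lower, and 6 of 14 leptotene and zygotene markers higher and 2 lower. The part of cell content in the Acsl4 difference was not tested.

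Acsl3, an enzyme of the endoplasmic reticulum and lipid droplets, had between 5.37 and 12.9 FPKM. It was lowest in L/Z cKO and L/Z WT at PD 52 and highest in P WT and L/Z cKO at PD 24. No test called it: the limma effect was 0.41 ± 0.19 for stage (adjusted p = 0.140) and -0.39 ± 0.20 for age (adjusted p = 0.208). Its FPKM fell in L/Z cKO from 12.1 at PD 24 to 5.37 at PD 52, a 2.26-fold difference, and by less in the other 3 age pairs. Acsl3 contains Utp14b on the same strand, and 3.59% of its windows occur in Utp14b transcripts, so some of its reads are uncertain. Utp14b itself lay between 4.80 and 7.86 FPKM.

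Acsl5 had the lowest mean level of the family and Acsl6 the smallest span, while the lowest single values were those of Acsl4. Acsl5, a synthetase of mitochondria and endoplasmic reticulum best known from intestine, had 1.25 to 1.70 FPKM in 6 libraries, and 3.34 and 5.13 FPKM in L/Z WT and L/Z cKO at PD 52. These were the same libraries in which Acsl1 and Acsbg2 were highest. Its counts were low, 110 to 365 reads, and the overlapping opposite-strand gene Zdhhc6 had 3.12 to 4.20 FPKM in a library type that does not mark strand. The limma adjusted p was 0.174 for stage and 0.121 for age.

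Acsl6, a synthetase of brain and testis that favours docosahexaenoic acid, had 14.9, 12.8, 11.9 and 11.6 FPKM at PD 24 and 11.2, 14.5, 14.7 and 13.9 FPKM at PD 52. Its span over the 8 libraries was 1.34-fold. The limma effect was 0.03 for stage (95% interval -0.37 to 0.42), 0.08 for age (-0.34 to 0.49) and 0.08 for genotype over 3 pairs (-0.44 to 0.60). These intervals do not reach a 2-fold change.

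The make-up of the family shifted with these levels. In P cKO at PD 24, Acsbg1 made up 53.0% of the summed FPKM of the 8 genes, and Acsl1, Acsbg2 and 1700061G19Rik made up 3.40%, 5.85% and 9.30%. In L/Z WT at PD 52, Acsbg1 made up 2.96%, while Acsl1 made up 19.7%, Acsbg2 35.4% and 1700061G19Rik 33.7%. The ratio of Acsbg1 to Acsbg2 accordingly went from 9.06 to 0.0837, a 108-fold range within 1 small family. P cKO at PD 24, which gave the 9.06, belongs to the pair that led to the choice of the family. Outside that pair the highest ratio was 3.73, in L/Z cKO at PD 24. These shares depend on the lengths used: by reads, Acsl1 made up 44.0% of the family in L/Z WT at PD 52, Acsbg2 19.7% and 1700061G19Rik 20.9%. Per principal transcript Acsl1 also led in that library, with 171 FPKM against 114 for Acsbg2 and 118 for 1700061G19Rik. The summed FPKM itself ran from 112 in P cKO at PD 24 to 366 in L/Z cKO at PD 52.

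**Figure D5:**
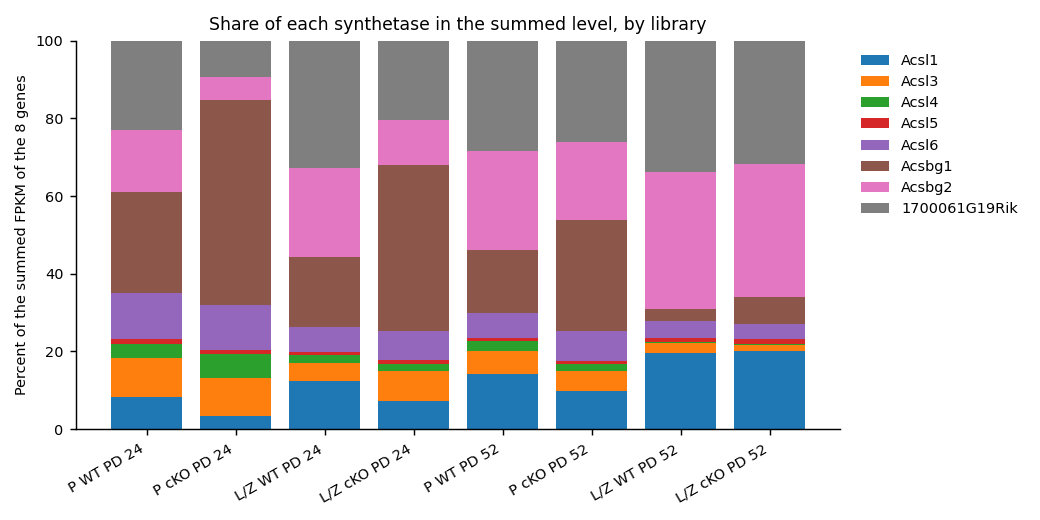
Share of each synthetase in the summed FPKM of the 8 genes (vertical axis, percent) in the 8 libraries by the deposited gene lengths, stacked to 100%. Acsbg1 took the largest share, 53.0%, in P cKO at PD 24 and its smallest, 2.96%, in L/Z WT at PD 52, where Acsbg2 and 1700061G19Rik together made up most of the sum.

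Other genes of acyl-CoA use were read against the share of all genes that limma called over 4 pairs, 27.9% for stage and 16.1% for age. Of 5 tested fatty acid transport synthetases (Slc27a), limma called 1 higher in P than in L/Z and none for age, and Slc27a1, the most abundant, had 8.99 to 18.1 FPKM. Of 5 tested short- and medium-chain synthetases, 3 were higher in P and 2 were lower at PD 52, a direction opposite to that of Acsl1. Of 7 carnitine shuttle genes, which carry acyl groups into mitochondria, none was called for stage or age, and carnitine acetyltransferase (Crat) held 124 to 222 FPKM. Of 9 thioesterases, which split acyl-CoA again, 1 was higher and 2 were lower in P, and 2 were higher at PD 52. Acot10 was among them, with an effect of -1.07 for stage (limma adjusted p = 0.00744) and 2.14 for age (adjusted p = 0.0186). Acot10 is a near copy of Acot9, so reads of these genes may have been split between them. No gene of these lists was called for genotype over 3 pairs.

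Against the same 27.9% and 16.1% of all genes, 2 of 7 acyl-CoA binding proteins were lower in P, and at PD 52 1 was higher and 1 lower. Dbil5, a testis form of the acyl-CoA binding protein, ranged from 119 FPKM in P cKO at PD 24 to 1233 FPKM in L/Z cKO at PD 52, and rose with age by 1.88 (limma adjusted p = 0.0185). Of 16 tested glycerolipid acyltransferases, 3 were higher and 3 lower in P, and 4 were higher and 2 lower at PD 52. Dgat2, which makes triglycerides from acyl-CoA, had 27.6, 12.3, 60.3 and 33.5 FPKM at PD 24 and 64.3, 43.8, 104 and 110 FPKM at PD 52, which is the course of Acsl1. Its effect was -1.11 for stage (limma adjusted p = 0.00687) and 1.35 for age (adjusted p = 0.0189). Gpat4, which starts glycerolipid synthesis, rose with age by 0.98 (limma adjusted p = 0.0334).

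The genes whose course was most like that of each synthetase were found among 8272 protein-coding genes by Pearson's correlation of log2(FPKM + 1) over the 8 libraries. For Acsl1 these were St6galnac2, Amer2 and Adipoq, with a correlation of 0.998 each. For Acsbg2 they were Rab3il1, Fscb and Spata20, with 0.999, 0.998 and 0.998, and for 1700061G19Rik Kif2b, Ccer1 and Catsper1, with 0.997 each. Catsper1 encodes a subunit of the calcium channel of the sperm tail. For Acsbg1 they were Cxcl1 with 0.99, Hsd17b11 with 0.98 and Aldh1a1 with 0.98, a chemokine, a hydroxysteroid dehydrogenase and a retinaldehyde dehydrogenase. Aldh1a1 had 25.5 FPKM in P WT and 59.0 in P cKO at PD 24, and 17.6 and 44.0 FPKM in these groups at PD 52.

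For Acsl4 the nearest genes were Bcl2l2, Tspyl2 and Fyn, each with a correlation of 0.99. For Acsl3 they were Rcn2, Ogfr and Gclm, each with 0.98. For Acsl5 they were Herpud1 with 0.99, Decr2 with 0.98 and Efcab1 with 0.98, and Herpud1, a gene of the endoplasmic reticulum stress response, was also highest in L/Z cKO at PD 52, with 82.5 FPKM. For Acsl6, whose values spanned the least, the best correlation was 0.92, with Gm45861, Efcab5 and Dnah6. With 8 libraries and a search over so many genes, high values are common, and they say nothing of shared control.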

How the data were processed

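RNA of 8 spermatocyte libraries (NEBNext Ultra kit, which does not mark strand; paired-end Illumina reads) was measured, 1 library per group. The authors deposited FPKM values, which per the study's methods were made with Novomagic. The submitters' processing notes name CASAVA 1.4, Bowtie 0.12.2 and the builds mm8 and mm9, while the gene coordinates matched GENCODE M21 on GRCm38 for 98.1% of genes and all 8 synthetases. Dividing FPKM times gene length by the value of 1 read in each library returned whole reads (within 0.01), which gave the counting intervals (exact binomial, 95%). The deposited values were already scaled by median-of-ratios, with size factors from 0.863 to 1.20, so repeating that scaling changed nothing.

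Pairs were compared on log2(FPKM + 1) over genes above 1 FPKM in either library, with 2-fold on that scale as the threshold; this understates changes of low genes. Genotype (3 pairs), stage and age (4 pairs each, balanced over genotype) were tested with limma 3.58.1 in R 4.3.3, with pairs as blocks and Benjamini-Hochberg adjustment over all genes above 1 FPKM in at least 1 library. Tested on simulated data, these fits recovered all 200 changed genes (a log2 change of 3), with 13 to 16 false calls. The changed genes were well expressed, the noise was set and not taken from these libraries, and no other factor differed. The simulation therefore does not measure power for smaller changes in the real libraries. Libraries that differ in genotype or age came from different mice, while the P and L/Z fractions of a genotype and age may share animals. With 1 library per group, p-values measure only the spread between these libraries. The members, gene lists and tests were chosen with earlier results of these data known. Named were all members, at most 4 genes per list by mean FPKM, and the 3 protein-coding genes most like each member. Also named were Mfn2, genes overlapping a member, and genes marked above as named or chosen after their values were seen. Alternatives varied the pseudocount, filter, scaling, block and pairs, and used voom on the recovered reads. Python 3.11.15 was used for the rest.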

Additional observations from a re-analysis of the deposited data

Results flagged for a closer look

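Acsl5 differed between cKO and WT in opposite directions in the 2 stages. The change on the log2(FPKM + 1) scale was 0.19 and 0.50 in the L/Z pairs, and -0.065 and -0.080 in the P pairs (the younger age first in each case). It stands here because both pairs of one stage moved one way and both of the other moved the opposite way, and the difference was not tested. The counting intervals of 3 of these 4 changes included 0, that of the L/Z pair at PD 52 being the exception.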

How the results depend on the processing

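With a pseudocount of 0.1 in place of 1, the genes 2-fold or more higher in cKO numbered 667, 1257, 1694 and 1498 and those lower 1663, 1868, 1670 and 1185 (P and L/Z at PD 24, then P and L/Z at PD 52), and those changed the same way in all 4 pairs numbered 1074 for stage and 863 for age. The genes called for genotype numbered 0 with that pseudocount, 0 without a filter, 3 with voom, 2 without the block, 2 with scaling over genes above 1 FPKM in all libraries, 2 with a trended prior variance, and 0 to 3 with a pair left out. For stage, 1135 genes were called without the block and 1771 to 5626 with a pair left out. For age, the count was 1638 with a pseudocount of 0.1, 2118 without a filter, 1 without the block, and 0 to 3901 with a pair left out: 0 without the P cKO pair, 0 without the L/Z cKO pair and 723 without the L/Z WT pair. With both P libraries of PD 24 and their partners left out, 0 genes were called for stage and 0 for age by limma, with 5452 and 5908 at an unadjusted p under 0.05, over 2 pairs each. This setting, the scaling over expressed genes, the trended prior and the transcript length below were chosen after seeing the data.

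For the synthetases, limma values kept their side of the threshold, or their size where no test was run, in 279 cases under other settings, lost the call in 27 and gained one in 2. The age effects of Acsbg2 and 1700061G19Rik moved in 4 cases, in the libraries of 1 genotype alone, and none reversed. For age, the limma adjusted p of 1700061G19Rik was 0.0568 with a pseudocount of 0.1, and without a filter it was 0.0688, with 0.0506 for Acsbg2. Of the changes within pairs, 353 stayed inside their counting interval, 31 moved outside it and none of those past 2-fold changed direction. Measured by reads, the median shares of the family were 26.1% for Acsl1, 2.42% for Acsl4, 15.5% for Acsl6, 17.2% for Acsbg1, 12.5% for Acsbg2 and 17.4% for 1700061G19Rik. Per principal transcript they were 20.3% for Acsl1, 4.18% for Acsl3, 1.39% for Acsl4, 0.782% for Acsl5, 18.1% for Acsl6, 18.1% for Acsbg1, 14.5% for Acsbg2 and 19.9% for 1700061G19Rik. By FPKM they were 11.1% for Acsl1, 6.94% for Acsl6 and 27.2% for 1700061G19Rik. Read number limits Acsl4 and Acsl5 most. No pairing by replicate number was possible, because each group holds 1 library and the labels carry no replicate numbers. The pairs blocked in limma joined libraries alike in the other 2 factors.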
